A study of Homo sapiens with 9 samples.

Results

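The noncoding genes of the nuclear genome that could be followed in every usable library were 118 long noncoding and small structured RNA genes, out of 27615 genes named in any of the deposited gene lists. A row belonged to them when its biotype was neither protein-coding nor any kind of pseudogene, when it did not lie on the mitochondrial chromosome, when 8 of the 9 libraries listed it, and when its mean over these 8 libraries was at least 100 reads. The study treated MDA-MB-231 cells, a triple-negative breast cancer line, with DMSO as vehicle, with rimonabant, an antagonist of the cannabinoid receptor CB1, or with TXX-1-10, a compound derived from rimonabant. Each treatment had 3 libraries of polyadenylated RNA from this 1 cell line, and no group carried a genetic change named by the labels. Dose and duration for the sequenced cells were not given in the sources used here, so the compounds were compared as labelled and not at a known common dose. Rimonabant replicate 1 listed only 4237 genes and 18 of the 118, and it is given only where it lists a gene.

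Most long noncoding RNAs are transcribed by RNA polymerase II, spliced and polyadenylated like messenger RNAs, but encode no known protein. Some act as scaffolds in the nucleus, such as NEAT1 in paraspeckles, and some bind proteins or microRNAs in the cytoplasm, such as NORAD. Others are valued mainly for what is cut from them: the introns of snoRNA host genes release the small nucleolar RNAs that guide modification of ribosomal RNA, and microRNA host genes carry microRNA hairpins, while the spliced host transcript is often degraded during translation.

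Several of the 118 carried such small RNAs, and their sequences are shown because these libraries count reads of the host, from which the small RNA is cut. The mature microRNAs below are RefSeq sequences (GRCh38.p14), all from the minus strand, with the seed, bases 2 to 8, in capitals. MIR22HG holds miR-22 on chromosome 17, and AC020916.1 holds the miR-23a, miR-27a and miR-24 cluster on chromosome 19. MIR137HG holds miR-137 and miR-2682 on chromosome 1, and MIR100HG holds miR-100, let-7a and miR-125b on chromosome 11.
hsa-miR-22-3p: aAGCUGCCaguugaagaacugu
hsa-miR-23a-3p: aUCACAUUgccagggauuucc
hsa-miR-27a-3p: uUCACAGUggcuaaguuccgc
hsa-miR-24-3p: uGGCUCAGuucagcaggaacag
hsa-miR-137-3p: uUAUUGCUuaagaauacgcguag
hsa-miR-2682-5p: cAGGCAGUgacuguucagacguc
hsa-miR-100-5p: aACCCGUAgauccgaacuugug
hsa-let-7a-5p: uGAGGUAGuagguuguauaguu
hsa-miR-125b-5p: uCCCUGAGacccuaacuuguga
No 2 of these 9 microRNAs shared a seed. The mature miR-22-3p lies at chr17:1713914-1713935, the miR-24 hairpin at chr19:13836287-13836359, the miR-137 hairpin at chr1:98046070-98046171 and the miR-100 hairpin at chr11:122152229-122152308. Host reads measure the long transcript and not the mature microRNA.

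The snoRNA hosts are represented by box C/D snoRNAs of hosts that moved in opposite directions (GENCODE 29, GRCh38), with the C box TGATGA and the D box CTGA in capitals. SNORD12C lies in ZFAS1 (chr20:49278940-49279028, plus strand), SNORD50B in SNHG5 (chr6:85677589-85677658, minus strand) and SNORD25 in SNHG1 (chr11:62855564-62855632, minus strand).
SNORD12C: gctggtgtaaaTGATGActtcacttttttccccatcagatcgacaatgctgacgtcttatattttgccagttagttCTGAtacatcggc
SNORD50B: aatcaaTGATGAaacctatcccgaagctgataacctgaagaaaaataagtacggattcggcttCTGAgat
SNORD25: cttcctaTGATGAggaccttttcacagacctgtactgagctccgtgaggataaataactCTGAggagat
ZFAS1 and SNHG5 rose with TXX-1-10 and SNHG1 fell, although all of them carry snoRNAs with these boxes.

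Library totals recovered from the deposited counts, FPKM values and gene lengths ran from 17078370 to 19277808. They are not counts of all reads, since in vehicle 1 and 3 the listed genes alone held more. Each list stopped partway, in a shared order that ran broadly, though not row by row, from genes with many reads to genes with few, so the shortest of the 8, vehicle 2 with 9397 genes, set which genes were seen in all 8, and 7876 of 7995 noncoding nuclear rows were not analysed here. TXX-1-10 replicate 3 stood apart from its group, with a chi-square per degree of freedom of 17.8 and 22.1 against TXX-1-10 1 and 2, where the within-group pairs of the other libraries, rimonabant 1 left out, lay between 1.96 and 4.27. Its ratio to the other libraries of its group fell with gene length across genes (Spearman -0.62). Some of the results that changed without it are named below. At any fold, 80 members rather than 67 then passed with rimonabant against vehicle, and 94 rather than 83 between the compounds. The cells carried the markers of a mesenchymal triple-negative line, with VIM between 224 and 329 FPKM (reads scaled by exonic length and library total) and the receptor genes ESR1 and PGR at most 0.0459 FPKM, while ERBB2 lay between 7.0 and 9.52 FPKM. SPARC was the exception among those markers, at or below 0.558 FPKM. Among luminal epithelial markers KRT8 (34.1 to 69.1 FPKM), KRT18 (39.5 to 76.9) and EPCAM (4.47 to 5.37) were expressed, while CDH1 was listed at 0. Markers of leukocytes, endothelium and fibroblasts reached at most 0.798 FPKM. The mitochondrial chromosome gave 6.35 to 6.52% of reads in vehicle, 6.43% in rimonabant and 3.44 to 3.80% in TXX-1-10, and its part in the results was not tested. In bulk RNA a lower level cannot be told apart from fewer cells that carry the transcript. The labels do not say that replicates came from separate cultures, so the p-values measure the spread between these libraries, which may be technical.

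The 118 genes comprised 43 lincRNAs, 35 antisense RNAs, 29 processed transcripts, 4 TEC transcripts, a class that awaits experimental evidence, 3 sense intronic RNAs, 2 bidirectional promoter RNAs, 1 sense overlapping RNA and 1 small structured RNA. Each gene was placed in 1 class of position. First taken were 20 that lay within or over a coding gene on the same strand, some of which also overlapped one on the opposite strand. Of the rest, 51 overlapped a coding gene on the opposite strand, some of them also starting close to its start. Then 7 only started back to back with a coding gene, and 40 touched none. Mean levels over the 8 libraries ran from 0.730 to 4755.5 FPKM with a median of 6.11. The threshold of 100 reads removed no gene with reads: the members just inside it were AC099850.3, MUC20-OT1 and LINC00665 with mean counts of 231, 234 and 235, and the 1 row outside it had 0 reads in all 8 libraries. The members were thus chosen in effect by their listing, since the mean count over all treatments removed no gene with reads. What set the order of the lists is not known, so whether differences between treatments entered the choice cannot be told.

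The order of abundance was led by RN7SL2, the RNA component of the signal recognition particle, at 4755.5 FPKM. NORAD, which holds PUMILIO proteins in the cytoplasm, followed at 99.9 FPKM, then SNHG5 at 98.0, LRRC75A-AS1 at 81.5, GAS5 at 80.7, SFTA1P at 68.0, SNHG6 at 66.0, NEAT1 at 59.4, SNHG8 at 58.0, AL161431.1 at 57.1, AC099850.3 at 40.5 and ZFAS1 at 36.8 FPKM. All values in this list are means over 8 libraries of 3 treatments, and neighbours within it, such as NORAD and SNHG5, or SNHG8 and AL161431.1, overlapped in their library values. SFTA1P, a lncRNA of lung lineage, did not pass in any of the 3 comparisons, with 66.4, 59.8 and 61.9 FPKM in vehicle, 72.2 and 71.7 in rimonabant and 64.1, 67.9 and 80.3 in TXX-1-10. It passed as higher with TXX-1-10 under TMM scaling (0.23, adjusted p = 0.0166) and with a length offset (0.29, adjusted p = 0.000209). With rimonabant it passed as higher with a length offset (0.32, adjusted p = 0.00058) and without TXX-1-10 replicate 3 (0.20, adjusted p = 0.00414). The 118 genes together took 0.746 to 0.793% of reads over the genes listed in all 8 libraries in vehicle, 0.813 and 0.745% in rimonabant 2 and 3, and 1.05 to 1.11% in TXX-1-10. Without RN7SL2 the shares were 0.605 to 0.614%, 0.670 and 0.678%, and 0.890 to 0.934%. The TXX-1-10 libraries lay above all others on either measure, and 3 libraries against 3 allow no exact permutation p under 0.05.

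With TXX-1-10 more noncoding genes rose than fell. Counted as called were genes with an adjusted p under 0.05 in edgeR's quasi-likelihood test and at least a doubling or a halving, a log2 change of 1 or more. Of the 118, 18 were called higher with TXX-1-10 than with vehicle (15.3%), where the share over all 9395 genes tested was 5.27%, and 11 were called lower (9.32%), where it was 7.42%. Passing the test at any fold were 98, against 75.2% of all genes, of which 63 rose, against 34.6% of all genes, and 35 fell, against 40.6%. The median log2 change was 0.30 for the 118 and -0.04 for all genes tested. Library values of vehicle and TXX-1-10 did not overlap for 96 members (81.4%), against 76.4% of all genes. Without TXX-1-10 replicate 3 the called members were 19 higher and 11 lower, ZFAS1 and AC006058.4 being the 2 of the 29 that were lost. AC020916.1, CCDC18-AS1 and DANCR were gained. With library sizes taken from the genes listed in all 8 libraries, which moved the median of all genes by 0.14 on the log2 scale, the split was 22 higher and 7 lower.

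**Figure D1:**
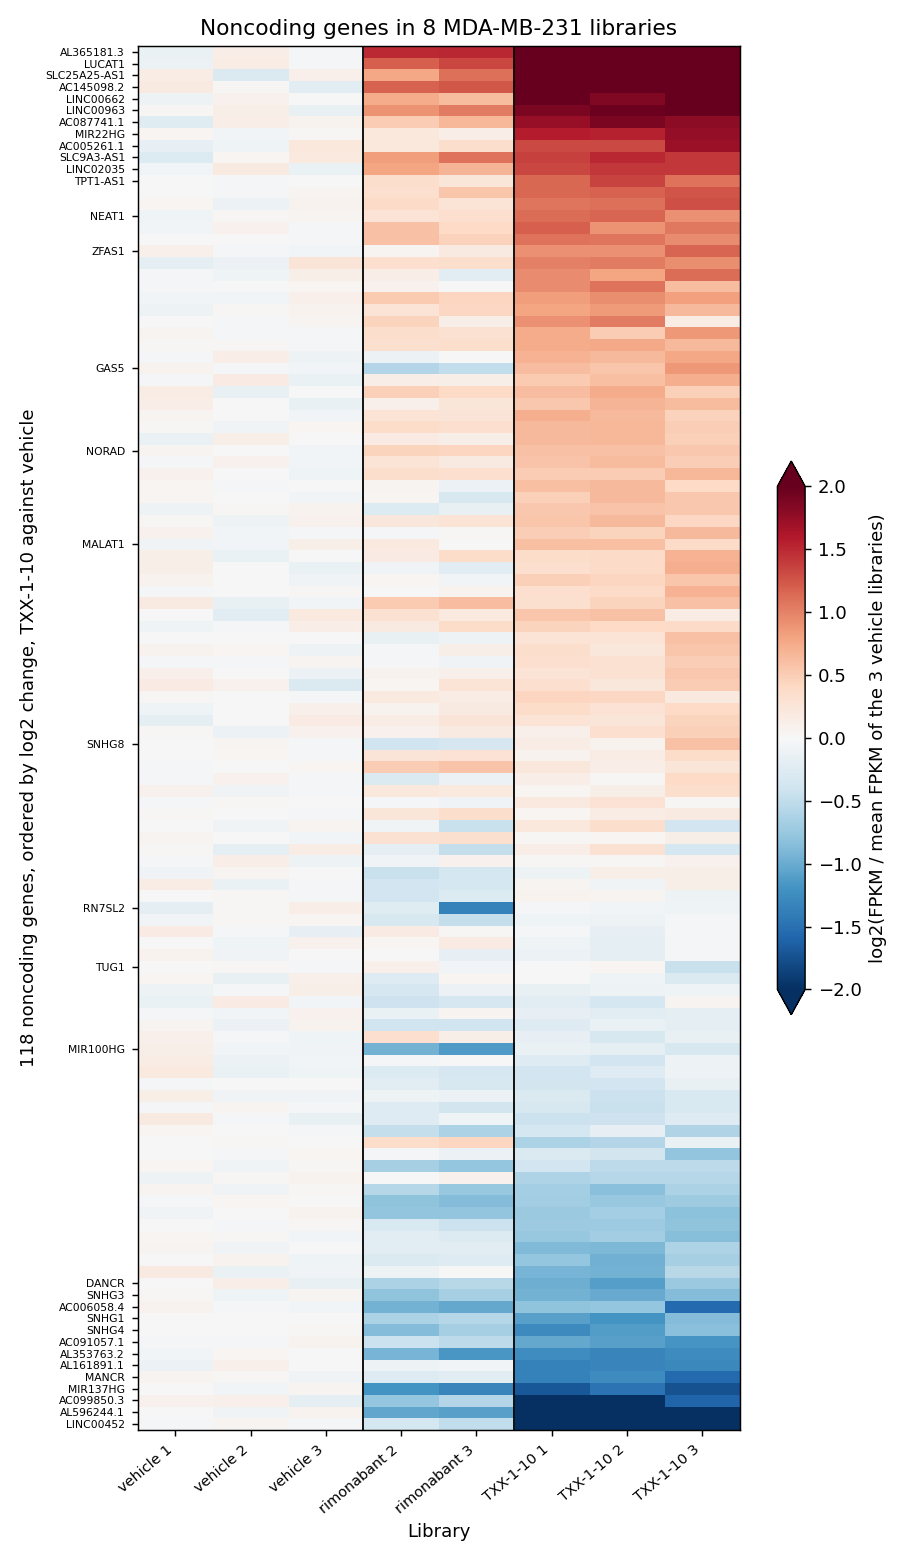
Each row is 1 of the 118 noncoding genes and each column 1 of the 8 libraries, and colour gives log2 of FPKM over the vehicle mean, with the scale ending at 2 in either direction. The rows are red or blue mainly in the 3 TXX-1-10 columns, with LINC00452 at one end and AL365181.3 at the other, and the rimonabant columns are paler for most of the rows.

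The calls were also counted by the position of the gene. Over all genes tested, 5.27% were called higher with TXX-1-10, 7.42% were called lower and 34.6% passed upward at any fold. The classes are small beside these shares. Of the 51 genes classed as antisense to a coding gene, 10 were called higher with TXX-1-10 and 1 lower. Of the 40 that touched no coding gene, 7 were called higher and 5 lower. Of the 20 on the same strand as a coding gene, 0 were called higher and 10 passed upward at any fold, and 4 were called lower. The difference between these classes was not tested. The library kit does not mark strand as far as the methods state it. Reads from a noncoding gene and from an overlapping gene therefore cannot be told apart where their exons coincide. This was the case for over 10% of exonic bases in 32 members and for no base in 39. Reads of an unspliced coding transcript could also be counted to a member within its intron, such as AL161891.1 in RFC3 or AC092718.4 in CENPN.

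AL365181.3 showed the largest rise. It is an antisense RNA within BCAN (chr1:156641666-156644887, minus strand), sharing 10.18% of its exonic bases with that gene. Its levels were 1.27, 1.53 and 1.37 FPKM in vehicle 1 to 3, 3.91 and 3.95 in rimonabant 2 and 3, and 10.1, 10.5 and 9.46 in TXX-1-10 1 to 3. The 3 groups did not overlap, and the level rose in steps from vehicle over rimonabant to TXX-1-10. The log2 change was 2.84 ± 0.10 with TXX-1-10 (SE, adjusted p = 1.05e-10), a 7.18-fold rise, and 1.5 ± 0.11 with rimonabant (adjusted p = 1.94e-06).

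LUCAT1, a stress-responsive lncRNA first described in smokers' airway cells, lies antisense to ADGRV1 without sharing an exonic base (chr5:91054834-91314547, minus strand). It measured 0.793, 0.957 and 0.839 FPKM in vehicle, 1.98 and 2.17 in rimonabant and 5.05, 5.23 and 5.33 in TXX-1-10. Again no group overlapped another. The rise was 6.02-fold with TXX-1-10 (log2 2.59 ± 0.08, adjusted p = 3.72e-11) and 2.40-fold with rimonabant (log2 1.26 ± 0.09, adjusted p = 8.65e-07). The RefSeq promoter window of LUCAT1 (GRCh38.p14, chr5:91314353-91314652, minus strand, 250 bases before to 50 after the start) is shown because it holds GCTGAGTCA at bases -54 to -46, in capitals, whose other strand fits TGACNNNGC, the core of the antioxidant response element. The last 7 of these letters also fit the AP-1 site TGANTCA, so the 2 matches overlap.
LUCAT1 promoter: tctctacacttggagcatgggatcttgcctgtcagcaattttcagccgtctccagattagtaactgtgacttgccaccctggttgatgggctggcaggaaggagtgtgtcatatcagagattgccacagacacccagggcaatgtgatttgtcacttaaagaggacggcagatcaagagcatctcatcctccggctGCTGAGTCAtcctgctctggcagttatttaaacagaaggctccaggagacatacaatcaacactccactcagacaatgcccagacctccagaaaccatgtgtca
TGACNNNGC occurred on either strand in 13.6% of 27305 RefSeq promoter windows of this length, in 11 of the 68 members with such a window, in 3 of 11 called higher with TXX-1-10 (LUCAT1, GABPB1-AS1 and TPT1-AS1) and in 2 of 4 called lower (MANCR and SNHG4). TGANTCA occurred in 7.76% of all windows, in 6 of the 68, in 3 of 11 called higher and in 1 of 4 called lower. The amino acid response element TGATGCAA, at 0.923% of all windows, and the E-box CACGTG, at 7.43%, were in 0 windows of members called in either direction. A match of letters shows no binding.

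The next largest rises came from genes of unknown or little known function. SLC25A25-AS1 (chr9:128108581-128118693, minus strand) measured 1.37, 1.02 and 1.33 FPKM in vehicle, 2.11 and 2.64 in rimonabant and 5.15, 5.70 and 5.70 in TXX-1-10. Its log2 change was 2.16 ± 0.12 with TXX-1-10 (adjusted p = 7.05e-09) and 0.94 ± 0.14 with rimonabant (adjusted p = 0.000209). SLC25A25, the coding gene that it overlaps, did not pass the test, at -0.13 (adjusted p = 0.135). AC145098.2, a TEC transcript that overlaps no coding gene (chr5:177476631-177479656, minus strand), measured 2.32, 2.09 and 1.77 FPKM in vehicle, 4.67 and 4.89 in rimonabant and 8.66, 9.59 and 8.71 in TXX-1-10. It rose 4.36-fold with TXX-1-10 and 2.32-fold with rimonabant. LINC00662 (chr19:27684580-27793940, minus strand) measured 0.802, 0.918 and 0.868 FPKM in vehicle, 1.45 and 1.34 in rimonabant and 3.45, 3.12 and 3.66 in TXX-1-10, a 3.95-fold rise with TXX-1-10 (adjusted p = 2.66e-09). In each of these genes the rimonabant libraries lay between vehicle and TXX-1-10 without overlap. The other called rises were LINC00963 (log2 1.95), AC087741.1 (1.80), MIR22HG (1.63), AC005261.1 (1.46), SLC9A3-AS1 (1.43), LINC02035 (1.39), TPT1-AS1 (1.20), GABPB1-AS1 (1.20), ZNF528-AS1 (1.16), NEAT1 (1.07), ZFPM2-AS1 (1.06), LINC01128 (1.04) and ZFAS1 (1.0). None of the 18 overlapped with vehicle in its library values. Without 1 TXX-1-10 library ZFPM2-AS1 among the rises (0.98) and SNHG1 (-0.98) and SNHG4 (-0.97) among the falls dropped just below the fold for a call.

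**Figure D2:**
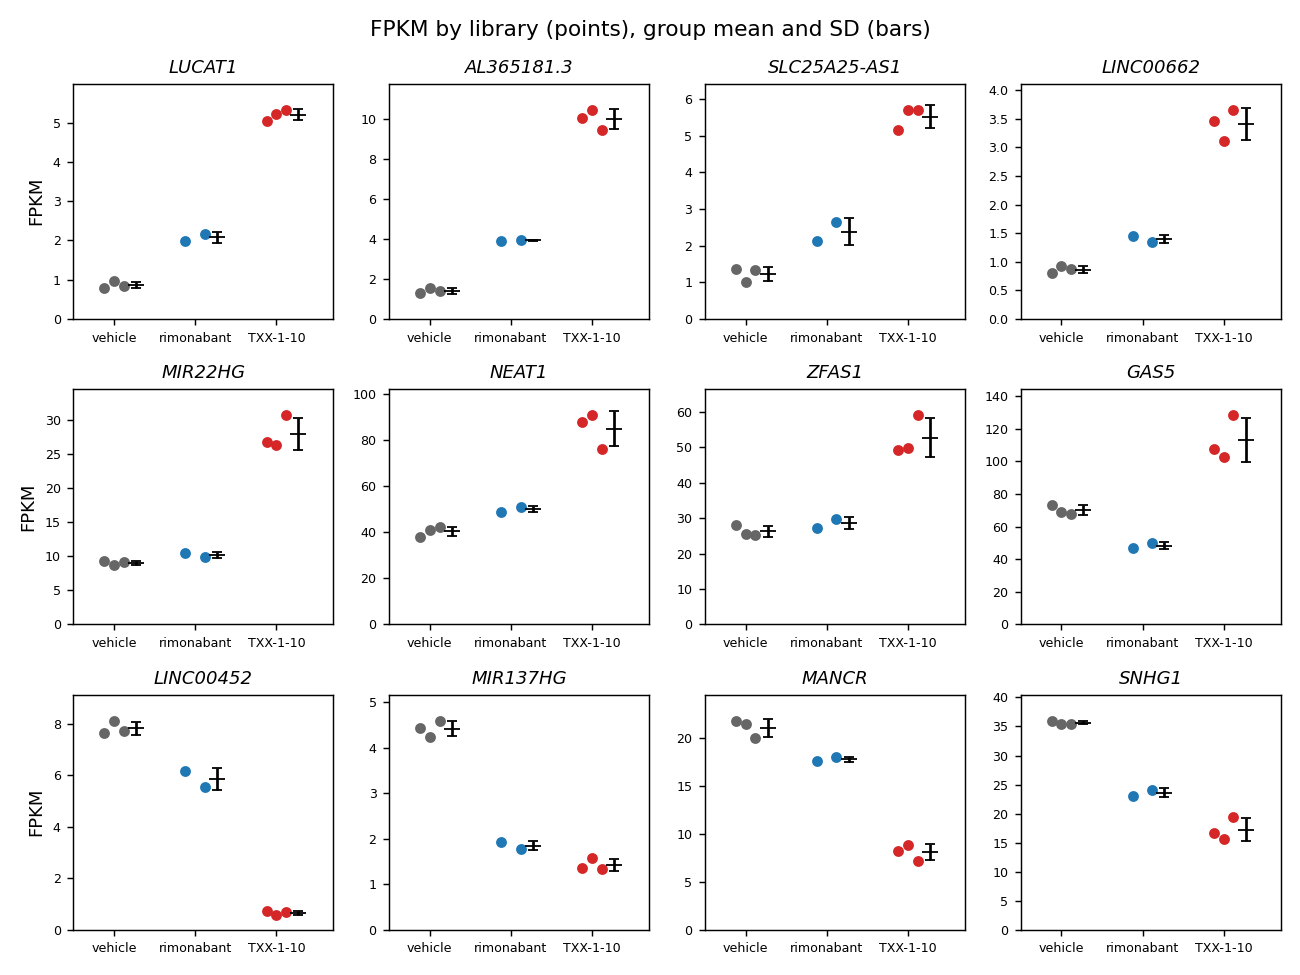
FPKM in each library (points), with the group mean and SD (bars), is plotted for 12 noncoding genes in vehicle, rimonabant and TXX-1-10, each panel with its own axis from 0. LUCAT1, AL365181.3, SLC25A25-AS1 and LINC00662 rise in steps, MIR22HG, NEAT1, ZFAS1 and GAS5 are high mainly in TXX-1-10, LINC00452 is lowest in the 3 TXX-1-10 libraries, at 0.562 to 0.725 FPKM, and MIR137HG, MANCR and SNHG1 are lower with either compound.

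LINC00452 fell the most. This lincRNA overlaps no coding gene (chr13:113888306-113923512, plus strand). It measured 7.64, 8.12 and 7.72 FPKM in vehicle, 6.15 and 5.57 in rimonabant and 0.725, 0.562 and 0.683 in TXX-1-10. Rimonabant lay slightly below vehicle and TXX-1-10 far below both. The level was 11.9-fold lower with TXX-1-10 than with vehicle (log2 -3.57 ± 0.11, adjusted p = 5.14e-11) and 1.34-fold lower with rimonabant (log2 -0.42 ± 0.09, adjusted p = 0.00289).

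AL596244.1 (chr9:121815674-121819452, minus strand) measured 14.1, 13.4 and 14.8 FPKM in vehicle, 6.89 and 6.61 in rimonabant and 2.61, 2.81 and 2.37 in TXX-1-10. The fall came in steps, -1.06 ± 0.08 with rimonabant (adjusted p = 2.15e-06) and -2.44 ± 0.08 with TXX-1-10 (adjusted p = 9.01e-11) on the log2 scale. AC099850.3 (chr17:59202677-59203829, minus strand) is antisense to PRR11, a gene of cell cycle progression, and shares 30.22% of its exonic bases. It measured 67.9, 68.6 and 55.7 FPKM in vehicle, 37.6 and 42.7 in rimonabant and 15.0, 15.1 and 21.2 in TXX-1-10, a log2 change of -1.91 ± 0.14 (adjusted p = 8.82e-08) beside -1.80 for PRR11 (adjusted p = 1.16e-10). Reads of these genes cannot be told apart in the shared bases.

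MANCR, the mitotically associated lncRNA (chr10:4650185-4678154, minus strand), measured 21.8, 21.4 and 20.0 FPKM in vehicle, 17.6 and 18.0 in rimonabant and 8.27, 8.86 and 7.22 in TXX-1-10. It fell 2.60-fold with TXX-1-10 (log2 -1.38 ± 0.08, adjusted p = 1.4e-08). The smaller fall with rimonabant (-0.24, adjusted p = 0.0334) did not pass with library sizes from the genes listed in all 8 libraries (0.138) or with a length offset (0.123). Nor did it pass with a replicate block (0.0625) or without vehicle 1 or 2 (0.101 and 0.0945). AL161891.1, which lies in an intron of RFC3 (chr13:33846190-33850825, plus strand), a subunit of the clamp loader of DNA replication, measured 4.12, 4.77 and 4.46 FPKM in vehicle, 4.15 and 4.27 in rimonabant and 1.73, 1.78 and 1.83 in TXX-1-10. Rimonabant overlapped vehicle here, at -0.08 (adjusted p = 0.494), while TXX-1-10 lay at -1.32 for AL161891.1 and at -1.83 for RFC3 (adjusted p = 1.7e-10). The other called falls were MIR137HG (-1.63), AL353763.2 (-1.27), AC091057.1 (-1.10), SNHG4 (-1.06), SNHG1 (-1.05) and AC006058.4 (-1.0). For AC006058.4 the third TXX-1-10 library was the lowest, at 5.50 FPKM beside 9.23 and 9.44, against 15.6 to 16.9 in vehicle, and without it the change was -0.79.

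Lists of noncoding genes and of genes for the proteins that work with them are read below. All values are of RNA, and no protein was measured in these libraries. The background is all genes tested, of which 34.6% rose and 40.6% fell with TXX-1-10 (median -0.04) and 23.7% rose and 22.8% fell with rimonabant (median 0.00). The snoRNA hosts split. Of 35 host genes listed, 16 were among the 118, and with TXX-1-10 8 rose, 7 fell and 1, SNHG17, did not pass, with a median log2 change of 0.08. GAS5, ZFAS1, EPB41L4A-AS1, LRRC75A-AS1, SNHG5, SNHG6, SNHG7 and SNHG8 rose. SNHG1, SNHG3, SNHG4, SNHG12, SNHG15, SNHG16 and DANCR fell. With rimonabant 0 rose and 10 fell (median -0.33). Of the 2 hosts with a higher value under rimonabant, 0 had an unadjusted p under 0.05 in edgeR, DESeq2 or limma, and with a length offset 1 rose. Without TXX-1-10 replicate 3 the counts for TXX-1-10 were 7 and 7, because SNHG8 no longer passed (0.11, adjusted p = 0.094). With rimonabant 11 hosts then fell, SNHG5 among them (-0.13, adjusted p = 0.00678).

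GAS5, whose spliced RNA accumulates when translation slows, moved in opposite directions with the compounds. It measured 73.6, 69.1 and 67.7 FPKM in vehicle, 46.6 and 49.8 in rimonabant (56.7 in rimonabant 1) and 108, 103 and 128 in TXX-1-10. The groups did not overlap and vehicle lay between the compounds. GAS5 was 0.69 ± 0.08 higher on the log2 scale with TXX-1-10 (adjusted p = 4.73e-06) and 0.54 lower with rimonabant (log2 -0.54 ± 0.09, adjusted p = 0.000441), and the difference between the compounds was 1.23 ± 0.09 (adjusted p = 2.36e-07). ZFAS1 measured 28.1, 25.5 and 25.2 FPKM in vehicle, 27.3 and 29.8 in rimonabant and 49.4, 49.7 and 59.1 in TXX-1-10. The log2 change with TXX-1-10 was 1.0 ± 0.08 (adjusted p = 1.58e-07), at the threshold for a call, and 0.92 without TXX-1-10 replicate 3 and 0.98 without vehicle 2 or 3. Rimonabant 2 overlapped vehicle and rimonabant 1 lay above it, at 36.8 FPKM, and 46.95% of the exonic bases are shared with another gene. EPB41L4A-AS1 measured 5.18, 5.01 and 5.76 FPKM in vehicle, 5.85 and 4.57 in rimonabant and 10.2, 9.20 and 11.6 in TXX-1-10.

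LRRC75A-AS1 measured 74.4, 67.4 and 67.9 FPKM in vehicle, 68.0 and 70.8 in rimonabant (74.0 in rimonabant 1) and 98.6, 95.1 and 110.1 in TXX-1-10, a log2 change of 0.54 ± 0.06 (adjusted p = 8.99e-06). SNHG5 measured 89.3, 90.4 and 88.7 FPKM in vehicle, 80.4 and 83.6 in rimonabant and 109, 108 and 135 in TXX-1-10. Rimonabant 1, at 104 FPKM, lay above vehicle, where rimonabant 2 and 3 lay below it. In all 8 rising hosts TXX-1-10 replicate 3 gave the highest of the 8 values, and with a length offset the counts stayed at 8 higher and 7 lower. SNHG8 was the weakest case, at 56.1, 58.7 and 55.0 FPKM in vehicle, 43.1 and 45.0 in rimonabant and 62.6, 59.2 and 84.6 in TXX-1-10, where replicate 3 alone stood far above vehicle. Its change did not pass without any 1 of the vehicle libraries, with TXX-1-10 (adjusted p from 0.0549 to 0.103) or with rimonabant (0.0669 to 0.0945). The fall with rimonabant was -0.33 without rimonabant 2 and -0.39 without rimonabant 3. It passed when only vehicle and rimonabant were fitted (adjusted p = 1.52e-05) and without TXX-1-10 replicate 3 (8.08e-06).

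SNHG1 fell with both compounds. Its levels were 36.0, 35.5 and 35.5 FPKM in vehicle, 23.1 and 24.1 in rimonabant (24.1 in rimonabant 1) and 16.7, 15.6 and 19.4 in TXX-1-10. The log2 change was -0.59 with rimonabant (adjusted p = 0.000105) and -1.05 ± 0.07 with TXX-1-10 (adjusted p = 4.97e-08). SNHG3 measured 22.6, 21.2 and 23.3 FPKM in vehicle, 12.8 and 14.1 in rimonabant (14.7 in rimonabant 1) and 11.6, 11.1 and 12.2 in TXX-1-10. DANCR, a host gene also known as an antagonist of differentiation, measured 17.3, 18.9 and 15.5 FPKM in vehicle, 11.1 and 11.8 in rimonabant and 8.81, 8.04 and 10.3 in TXX-1-10. SNHG16 was lowest with rimonabant, at -0.72 ± 0.08 (adjusted p = 1.99e-05) against -0.47 ± 0.07 with TXX-1-10 (adjusted p = 3.37e-05).

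Many snoRNA host genes begin with a terminal oligopyrimidine (TOP) tract, a run of pyrimidines starting with C at the first base, which couples translation to growth signals. RefSeq windows (GRCh38.p14) were at hand for 14 of the 16 hosts, and 5 began with a C followed by at least 3 pyrimidines, in capitals below, with 10 bases before the start. Such a start stood in 5.45% of all 27305 windows.
ZFAS1: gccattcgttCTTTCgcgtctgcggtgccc
SNHG5: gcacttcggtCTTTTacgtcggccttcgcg
SNHG7: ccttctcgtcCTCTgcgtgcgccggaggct
SNHG4: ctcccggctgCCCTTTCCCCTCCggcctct
SNHG12: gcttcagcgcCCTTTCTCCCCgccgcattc
The first 3 hosts rose with TXX-1-10 and SNHG4 and SNHG12 fell, so hosts with this start were found in either direction. A start annotated a few bases away would hide such a run, and GAS5, a textbook TOP gene, had none at its RefSeq start.

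Messenger RNAs of the proteins that package the snoRNAs mostly fell. Of 15 genes for snoRNP proteins and assembly factors 1 rose and 12 fell with TXX-1-10 (median -0.49), and 1 rose and 10 fell with rimonabant. NOP56, a core protein of box C/D snoRNPs, measured 64.6, 64.0 and 64.0 FPKM in vehicle, 39.5 and 41.2 in rimonabant and 24.8, 24.9 and 26.7 in TXX-1-10 (log2 -1.33 ± 0.05, adjusted p = 2.52e-10). NOP58, its partner in the same particle, changed by -1.01 and the ATPase RUVBL2, which assembles it, by -1.03. DKC1, the pseudouridine synthase of box H/ACA particles, changed by -0.86 and fibrillarin (FBL), the methyltransferase, by -0.56. ZNHIT3, an assembly factor, was the 1 that rose (0.54, adjusted p = 0.000839), and NOP10 and GAR1 did not pass with TXX-1-10.

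Of 17 nuclear scaffold lncRNAs listed, 3 were among the 118. NEAT1 and MALAT1 rose with TXX-1-10 and TUG1 did not pass (-0.11, adjusted p = 0.342), though it passed as lower with a length offset and the replicate block together (-0.15, adjusted p = 0.0317). NEAT1, an RNA of paraspeckles (chr11:65422774-65445540, plus strand), was counted over 22767 exonic bases in polyadenylated RNA. Its isoforms were not told apart, and any form without a poly(A) tail was disfavoured. NEAT1 measured 38.1, 40.9 and 42.1 FPKM in vehicle, 48.9 and 50.8 in rimonabant (43.5 in rimonabant 1) and 87.6, 90.7 and 76.3 in TXX-1-10. No group overlapped another, and rimonabant 1 lay close to the highest vehicle library. It rose 2.10-fold with TXX-1-10 (log2 1.07 ± 0.07, adjusted p = 4.06e-08) and 1.24-fold with rimonabant (log2 0.31 ± 0.08, adjusted p = 0.00776), which was lost without rimonabant 3 (0.28, adjusted p = 0.0718). MALAT1, which gathers in nuclear speckles, measured 23.9, 24.4 and 27.4 FPKM in vehicle, 29 and 25.2 in rimonabant (22.1 in rimonabant 1) and 38.3, 38.2 and 32.9 in TXX-1-10 (log2 0.53 ± 0.08, adjusted p = 5.18e-05). Its rimonabant values overlapped vehicle.

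Messenger RNAs of paraspeckle and speckle proteins mostly fell. Of 16 genes for these proteins 0 rose and 15 fell with TXX-1-10 (median -0.55), also 0 at an unadjusted p under 0.05 and in DESeq2 or limma. With library sizes from the genes listed in all 8 libraries 1 rose and 13 fell. PSPC1, a core paraspeckle protein, measured 22.5, 22.0 and 21.6 FPKM in vehicle, 13.4 and 13.8 in rimonabant and 8.18, 8.20 and 8.50 in TXX-1-10 (log2 -1.41 ± 0.05, adjusted p = 1.95e-10). SFPQ, which binds NEAT1 with NONO, changed by -0.95, and the splicing factors SRSF1 and SRSF2 by -1.22 and -1.16. PNISR, at 0.04, was the member that did not pass (adjusted p = 0.458).

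Among microRNA hosts, 4 of 37 listed were measured, and with TXX-1-10 MIR22HG and PVT1 rose while MIR100HG and MIR4435-2HG fell. MIR22HG (chr17:1711493-1717174, minus strand), the host of the miR-22-3p shown above, measured 9.26, 8.72 and 9.18 FPKM in vehicle, 10.5 and 9.91 in rimonabant and 26.9, 26.4 and 30.8 in TXX-1-10. The TXX-1-10 libraries stood apart from both other groups. The rise was 3.09-fold (log2 1.63 ± 0.07, adjusted p = 1.04e-09), against 0.17 ± 0.08 with rimonabant (adjusted p = 0.113). The change with rimonabant passed with library sizes from the genes listed in all 8 libraries (0.25, adjusted p = 0.0177) and without TXX-1-10 replicate 3 (0.17, adjusted p = 0.0301). MIR100HG was lowest with rimonabant, at 1.42, 1.26 and 1.25 FPKM in vehicle, 0.680 and 0.596 in rimonabant and 1.20, 1.15 and 1.05 in TXX-1-10. It was 2.05-fold lower with rimonabant (log2 -1.04 ± 0.10, adjusted p = 1.51e-05) and 1.16-fold lower with TXX-1-10 (log2 -0.21, adjusted p = 0.0458). The pass with TXX-1-10 was lost under TMM scaling (-0.16, adjusted p = 0.127) and when any of several single libraries was left out.

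MIR137HG and AC020916.1 were not in the list of hosts and were added after their values were seen, because of the microRNAs within them. MIR137HG (chr1:97933474-98049863, minus strand) fell with both compounds, from 4.42, 4.24 and 4.59 FPKM in vehicle to 1.93 and 1.78 in rimonabant and 1.36, 1.58 and 1.33 in TXX-1-10. The log2 change was -1.25 ± 0.10 with rimonabant (adjusted p = 2.39e-06) and -1.63 ± 0.09 with TXX-1-10 (adjusted p = 6.39e-09). AC020916.1 (chr19:13823880-13842928, minus strand) measured 1.26, 1.32 and 1.71 FPKM in vehicle, 1.81 and 1.81 in rimonabant and 2.85, 2.95 and 2.72 in TXX-1-10 (log2 0.99 ± 0.10, adjusted p = 1.31e-06), just under a doubling. Of 16 genes for microRNA processing proteins 5 rose and 8 fell with TXX-1-10, from AGO4, an Argonaute protein, at 1.07 to DROSHA, the nuclease that frees the hairpin, at -0.80.

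Of 18 cytoplasmic regulatory lncRNAs listed, 6 were measured, and with TXX-1-10 3 rose and 3 fell. NORAD measured 81.1, 79.0 and 75.3 FPKM in vehicle, 107 and 106 in rimonabant (96.9 in rimonabant 1) and 118, 118 and 114 in TXX-1-10. All rimonabant and TXX-1-10 libraries lay above vehicle, with log2 changes of 0.44 and 0.58, and the difference between the compounds, 0.14, lay at the threshold (adjusted p = 0.0466) and did not pass without any 1 of 7 libraries (adjusted p from 0.051 to 0.177) or with the replicate block (0.0888). OIP5-AS1, also called Cyrano, rose by 0.56 ± 0.06 with TXX-1-10 (adjusted p = 2.79e-06) and GABPB1-AS1 by 1.20 ± 0.06 (adjusted p = 5.4e-09). CYTOR (-0.79), its close copy MIR4435-2HG (-0.77) and LINC01116 (-0.79) fell. CYTOR and MIR4435-2HG are nearly identical in part of their sequence, so how their reads were divided is uncertain.

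Of 19 lncRNAs known from p53 and stress responses, 7 were measured, of which NEAT1, PVT1, MIR22HG, GAS5 and NORAD rose with TXX-1-10 and SNHG15 and LINC00467 fell. MDA-MB-231 cells carry a mutant p53. Several of the 7 also belong to the lists above and are not further evidence. LINC00467 lay near the threshold, at -0.24 ± 0.10 (adjusted p = 0.0464), and its pass was lost under TMM scaling (-0.19, adjusted p = 0.0925) and without single libraries.

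The 1 small structured RNA of 30 listed was RN7SL2 (chr14:49862550-49862849, minus strand), transcribed by RNA polymerase III and not polyadenylated, and near-identical to RN7SL1, so its reads in a polyadenylated library are uncertain. It measured 4704, 5421 and 5876 FPKM in vehicle, 4499.7 and 2093 in rimonabant 2 and 3 (4491 in rimonabant 1), and 5266, 5149 and 5035 in TXX-1-10. The low group value of rimonabant came from replicate 3. RN7SL2 passed as lower with rimonabant (-0.69 ± 0.22, adjusted p = 0.0243), and without rimonabant 3 it did not (-0.25, adjusted p = 0.132). Of 26 subunits and factors of RNA polymerase III 7 rose and 12 fell with TXX-1-10, from the repressor MAF1 at 0.77 to the subunit POLR3K at -1.39.

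Genes that destroy noncoding RNA moved in either direction. Among 18 factors of nonsense-mediated decay, which degrades many spliced snoRNA hosts, 6 rose and 6 fell with TXX-1-10 (median -0.07), from PNRC2, which links UPF1 to decapping, at 0.62 to MAGOHB, of the exon junction complex, at -1.37. UPF1, the central helicase, changed by -0.18 ± 0.05 (adjusted p = 0.00311). Of 19 genes for proteins of nuclear RNA decay and retention 4 rose and 8 fell, with EXOSC2, a subunit of the exosome, at -1.09.

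Fewer noncoding genes were called with rimonabant. Of the 118, 3 were called higher than vehicle, where 0.734% of all genes tested were, and 4 lower, where 0.777% were, which together made 5.93% against 1.51% of all genes. Passing at any fold were 67, against 46.5% of all genes, of which 33 rose and 34 fell, against 23.7% and 22.8%, and the median was 0.02. Library values did not overlap for 82 members (69.5%), against 72.3% of all genes. AL365181.3, LUCAT1 and AC145098.2 were the called rises, and MIR137HG, AL596244.1, AL353763.2 and MIR100HG the called falls. AL353763.2, a TEC transcript on chromosome 9, measured 11.6, 12.3 and 12.1 FPKM in vehicle, 6.28 and 5.36 in rimonabant and 5.10, 4.83 and 5.0 in TXX-1-10. Without rimonabant 2 the called genes were 6 higher and 6 lower, and without rimonabant 3 AL353763.2 (-0.93) and MIR100HG (-0.94) dropped below the fold for a call. With library sizes from the genes listed in all 8 libraries they were 6 higher and 1 lower. AL161431.1 (chromosome 13) was higher with rimonabant than with either other treatment, at 47.7, 48.8 and 50.3 FPKM in vehicle, 69.8 and 72.3 in rimonabant (77 in rimonabant 1) and 57.1, 53.4 and 57.8 in TXX-1-10. Its log2 change was 0.54 with rimonabant (adjusted p = 1.86e-05) and 0.20 with TXX-1-10.

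Set against each other directly, TXX-1-10 and rimonabant differed in 13 called genes, 8 higher with TXX-1-10, against 2.10% of all genes, and 5 lower, against 4.32%. Together these were 11.0% of the members, against 6.42% of all genes. Higher were MIR22HG (1.46), AL365181.3 (1.35), LUCAT1 (1.33), LINC00662 (1.29), GAS5 (1.23), SLC25A25-AS1 (1.21), AC087741.1 (1.21) and AC005261.1 (1.18). Lower were LINC00452 (-3.15), AL596244.1 (-1.38), AL161891.1 (-1.24), AC099850.3 (-1.23) and MANCR (-1.13). The interval for LINC00452 ran from -3.39 to -2.92 and that for MIR22HG from 1.30 to 1.61 on the log2 scale (95%, 1.96 SE). At any fold 83 passed, against 60.5% of all genes, 60 as higher, against 26.6%, and 23 as lower, against 33.8%. Library values of the compounds did not overlap for 93 members (78.8%), against 71.4% of all genes. Among the snoRNA hosts 9 were higher with TXX-1-10 than with rimonabant and 4 lower, and without TXX-1-10 replicate 1 or 2 only 1 was lower. Of the lower hosts, SNHG3 and SNHG4 did not pass under TMM scaling (adjusted p = 0.0655 and 0.0636). The same held with library sizes from the genes listed in all 8 libraries (0.0843 and 0.0714). Without rimonabant 3 the differences were -0.14 for SNHG3, -0.19 for SNHG4 and -0.30 for DANCR. Some genes showed no detectable difference between the compounds, such as AC006058.1 (0.04 ± 0.07, adjusted p = 0.65), SNHG15 (-0.05 ± 0.09, adjusted p = 0.659) and LOXL1-AS1 (0.12 ± 0.09, adjusted p = 0.276), each of which fell with either compound against vehicle. The intervals of these differences ran from -0.10 to 0.18, from -0.22 to 0.12 and from -0.06 to 0.29 on the log2 scale, so small differences remain possible.

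Opposite directions with the 2 compounds, each passing the test, were found for GAS5, SNHG8 and AC092718.4, of which SNHG8 and AC092718.4 did not keep this without single libraries. AC092718.4, in an intron of CENPN, a centromere protein (chr16:81030770-81031485, plus strand), measured 19.3, 19.6 and 19.2 FPKM in vehicle, 24.9 and 26.2 in rimonabant and 12.5, 12.9 and 17.7 in TXX-1-10. It was 0.40 ± 0.13 higher with rimonabant (adjusted p = 0.0232) and 0.43 lower with TXX-1-10 (log2 -0.43 ± 0.12, adjusted p = 0.00649), and the groups did not overlap. The rise with rimonabant did not pass without any 1 vehicle library (adjusted p from 0.0566 to 0.0641). It was 0.43 without rimonabant 2 and 0.36 without rimonabant 3. It passed when only vehicle and rimonabant were fitted (adjusted p = 0.000769) and without TXX-1-10 replicate 3 (0.000511).

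For 56 members a coding partner that overlaps them or starts back to back was tested, in 64 pairs. Across these pairs, which share libraries and in part reads, the log2 changes with TXX-1-10 had a Pearson correlation of 0.36 and a Spearman correlation of 0.32. The same sign was found in 40 of 64 pairs. By relation, the Pearson correlation was 0.54 for 9 same-strand pairs and 0.47 for 24 antisense pairs. It was 0.08 for 19 antisense pairs with starts within 1000 bases and -0.28 for 12 back-to-back pairs (Spearman 0.09 and 0.15). The difference between relations was not tested. Pairs that fell together included AC099850.3 with PRR11, AL161891.1 with RFC3, and MIR137HG with DPYD (-0.89). MIR22HG rose with WDR81 (1.15), AC020916.1 with ZSWIM4 (1.81) and GARS-DT (0.76) with GARS (1.46), the glycyl-tRNA synthetase. GABPB1-AS1 rose (1.20) while GABPB1, a subunit of a transcription factor of nuclear genes for mitochondria, fell (-0.43, adjusted p = 0.000433). LOXL1-AS1 fell with rimonabant (-0.83), where LOXL1 was at 0.08, and both fell with TXX-1-10 (-0.72 and -0.93).

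**Figure D3:**
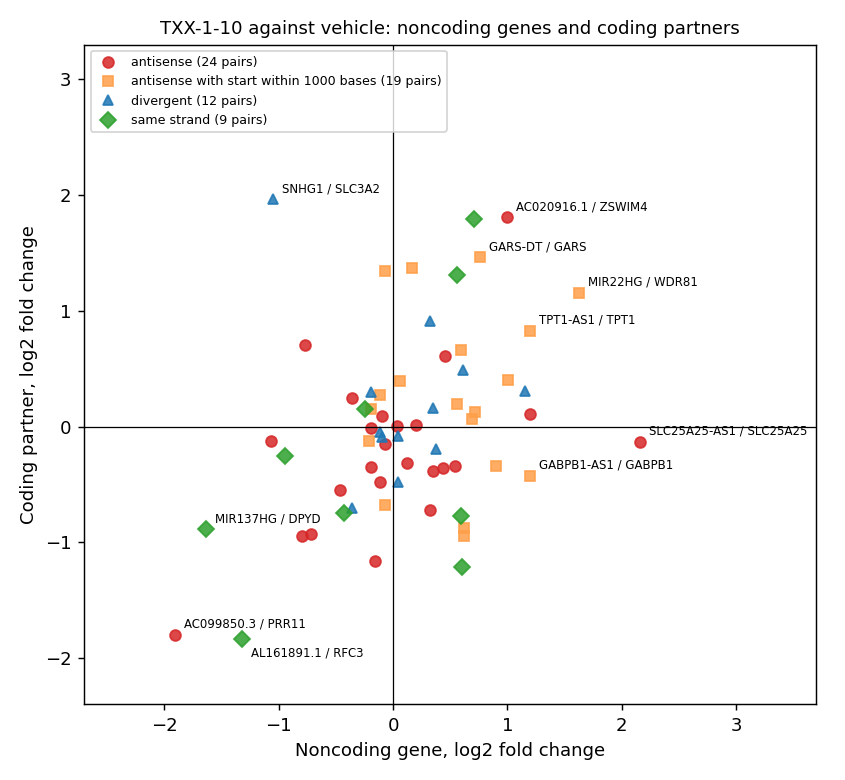
Each point is 1 of 64 pairs of a noncoding gene (horizontal axis) and its overlapping or back-to-back coding partner (vertical axis), both as log2 change with TXX-1-10 against vehicle. Most points lie near the centre, PRR11 and RFC3 with their noncoding partners lie low on the left, and SLC3A2 with SNHG1 lies alone at the upper left.

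SNHG1 and SLC3A2 parted the most. SLC3A2, the heavy chain of amino acid transporters including the cystine transporter, averaged 43.2 ± 1.08 FPKM in vehicle (SD, n = 3), 77.7 ± 0.597 in rimonabant (n = 2) and 168 ± 11.8 in TXX-1-10 (n = 3). It rose by 0.85 with rimonabant and by 1.96 with TXX-1-10 on the log2 scale (adjusted p = 5.03e-11), while SNHG1 changed by -0.59 and -1.05. The genes are transcribed away from each other with 187 bases between their starts, and this stretch is printed in capitals within the RefSeq promoter window of SNHG1 (GRCh38.p14, chr11:62855836-62856135, minus strand), since both starts share it.
SNHG1 promoter: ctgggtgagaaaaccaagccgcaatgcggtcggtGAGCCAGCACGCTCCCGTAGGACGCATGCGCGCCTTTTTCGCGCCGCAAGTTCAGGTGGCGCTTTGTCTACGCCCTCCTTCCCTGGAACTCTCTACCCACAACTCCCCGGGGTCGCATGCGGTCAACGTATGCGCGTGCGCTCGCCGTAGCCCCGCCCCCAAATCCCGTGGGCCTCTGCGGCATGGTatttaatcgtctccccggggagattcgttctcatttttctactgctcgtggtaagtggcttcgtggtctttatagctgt
The window held none of the letters searched for the antioxidant response element, the AP-1 site, the amino acid response element or the E-box, which says nothing of the factors themselves. The SNHG1 exons share 15.34% of their bases with other genes and 0 with SLC3A2 or any other coding gene on the opposite strand.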

How the data were processed

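MDA-MB-231 cells with vehicle, rimonabant or TXX-1-10, 3 libraries each, were grouped by the treatment in the labels. The authors deposited, for each library, a raw read count per gene and FPKM values, without pooling. Per the labels' processing notes the reads were aligned with HISAT2 2.0.5 and counted with featureCounts 1.5.0-p3. The strand setting of the counting is not given in the sources used here, and oligo(dT) selection disfavours RNAs without a poly(A) tail. Library size was the total that links count, FPKM and gene length, 17078370 to 19277808. How this total was formed is not known. In vehicle 1 it was 17078370, while the listed genes held 17492638 reads, so it is not the sequencing depth.

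Counts of the 9395 genes listed in 8 libraries with a mean of at least 10 reads were fitted together with edgeR 4.0.16 (glmQLFit, R 4.3.3), treatment as the only term and the recovered totals as library sizes, with Benjamini-Hochberg adjustment over all of them. Passed means adjusted p under 0.05, and called also a log2 change of at least 1. The SE is the log2 change over the square root of F, and intervals are 1.96 SE. The fit was also run on simulated data for TXX-1-10 against vehicle, in which 200 of 9395 genes were changed 3-fold. All 200 were recovered, with 0 false calls. The changed genes had a mean of at least 100 reads. No length trend and no library standing apart, as TXX-1-10 replicate 3 did, was simulated. The simulation therefore checks the working of the fit only and cannot show how reliable the calls in these data are. Coordinates are GENCODE 29 (GRCh38), matched by gene identifier for 27578 of 27615 genes, and sequences are from RefSeq and GENCODE.

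Named are the 12 members with the highest mean FPKM, up to 10 called members in each direction of each comparison without overlap, members of the lists, called or extreme members of the coding lists, partners of named genes and the members next to the count minimum. Other genes were named after their values were seen. The members and lists were chosen with earlier results of these data known. Alternatives were other scalings, filters, DESeq2 1.42.0, limma 3.58.1 on log2(FPKM + 1) and log2(FPKM + 0.1), a length offset, a replicate block, and leaving out libraries. Those for the lists were added after seeing the data. Figures were drawn with matplotlib 3.10.9.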

Additional observations from a re-analysis of the deposited data

Results flagged for a closer look

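Of the members, 3 changed in opposite directions with the compounds, each passing edgeR's quasi-likelihood test against vehicle, and in each the difference between TXX-1-10 and rimonabant was tested directly. GAS5 was 1.23 ± 0.09 higher on the log2 scale with TXX-1-10 than with rimonabant (adjusted p = 2.36e-07), and all 3 TXX-1-10 libraries lay above vehicle and both rimonabant libraries below it. SNHG8 was 0.64 ± 0.13 higher with TXX-1-10 than with rimonabant (adjusted p = 0.000815). Its rise against vehicle rests on TXX-1-10 replicate 3, at 84.6 FPKM, and was 0.11 without it (adjusted p = 0.094). Neither change of SNHG8 against vehicle kept its pass without single vehicle libraries (adjusted p with rimonabant from 0.0669 to 0.0945). The fall with rimonabant also did not pass with library sizes from the genes listed in all 8 libraries (0.0625). It passed when only vehicle and rimonabant were fitted (1.52e-05) and without TXX-1-10 replicate 3 (8.08e-06). AC092718.4 differed by -0.83 ± 0.13 (adjusted p = 0.000154), with 3 of 3 TXX-1-10 libraries below vehicle and 2 of 2 rimonabant libraries above it. Its rise with rimonabant did not pass without any 1 vehicle library (adjusted p from 0.0566 to 0.0641). That rise passed when only vehicle and rimonabant were fitted (0.000769) and without TXX-1-10 replicate 3 (0.000511).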

How the results depend on the processing

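The 29 members called with TXX-1-10 against vehicle became 4 when all 9 libraries were fitted, since only 18 members could then be tested, 14 among the 47 members overlapping no coding gene, and 98 at any fold. The 7 called with rimonabant became 0 with 9 libraries (edgeR, where 12 of 18 had an unadjusted p under 0.05 and 10 passed at any fold), 3 without overlap, 67 at any fold and 1 in limma on log2(FPKM + 1). The 13 that differed between the compounds became 1, 5, 83 and 8. The other scalings, filters and tools stayed within 1.5 times the counts reported. Leaving out each library in turn gave 27 to 30, 5 to 12 and 13 to 15, the 12 without rimonabant replicate 2. The share of reads of the members became 0.622% in vehicle, 0.640% in rimonabant and 0.948% in TXX-1-10 with 9 libraries. With the length offset 1 snoRNA host rose with rimonabant. With library sizes from the genes listed in all 8 libraries the splits were 22 higher and 7 lower for TXX-1-10 and 6 higher and 1 lower for rimonabant. Of 2841 values of single genes recomputed, 2707 kept direction and side of the threshold, 104 lost the threshold, 30 gained it and none reversed.

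Across genes, deviations of libraries from their group means were correlated between same-numbered replicates. These correlations were -0.07, -0.04 and -0.08 between TXX-1-10 and vehicle, 0.02 and 0.14 between rimonabant and vehicle, and 0.38 and 0.42 between TXX-1-10 and rimonabant. The deviations of the 2 rimonabant libraries are mirror images, so values with rimonabant are not independent. Ratios to the rest of the group followed gene length in TXX-1-10 2 and 3 (Spearman 0.55 and -0.62) and rimonabant 2 and 3 (0.37 and -0.37). The part of gene length in these correlations was not tested. As not every pair was above 0.1 and the labels tie the numbers to nothing, they were not taken to pair the samples. With the replicate block 29, 6 and 13 members were called, and with the block and a length offset 29, 5 and 14. Genes with few reads lie beyond the end of the lists, and the 2 usable rimonabant libraries limit every comparison with rimonabant.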

Other observations

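Neighbours within 20000 bases of the named members were also read. TTLL11 near AL596244.1 lay at -1.68 with TXX-1-10, SLC26A11 and SGSH near AC087741.1 at 1.51 and 0.73, and FRMD8 near NEAT1 at 0.74, on the log2 scale. These are values only.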
